A study of Mus musculus with 7 samples.

Results

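The BCL2 family decides whether a cell keeps its mitochondria intact or dies by apoptosis, and 10 of its genes are described here in mouse spleen after lipopolysaccharide (LPS). They were taken by symbol from a table of 17920 genes, and they were picked with levels from these same libraries already known. Their values are therefore a description, and a threshold that a member passes below is not read as a test of it. The anti-apoptotic members are 6 genes: Bcl2, Bcl2l1, Mcl1, Bcl2a1a, Bcl2a1b and Bcl2a1d. The pro-apoptotic members are 4 genes: Bcl2l11, Bcl2l14, Bbc3 and Pmaip1. All 10 members passed the filter of a mean of at least 1 FPKM (a fragment count corrected for transcript length and for the number of mapped fragments), and each symbol stands for 1 row of the table.

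Anti-apoptotic BCL2 proteins hold the pore-forming effectors BAX and BAK in check on the outer mitochondrial membrane. BH3-only proteins are the death signals of the family: they occupy the groove of the anti-apoptotic proteins, and some of them also switch on BAX and BAK directly. Lymphocytes, which make up most of the cells of a spleen, are known to depend on BCL2 and MCL1. The A1 protein made from the Bcl2a1 genes is a classical target of NF-kB, the factor that LPS activates through its receptor TLR4.

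The study compared wild-type mice with mice that lack GdX (UBL4A), a ubiquitin-like protein encoded on the X chromosome that works with BAG6 in delivering tail-anchored proteins to membranes. All mice were C57BL/6, 8 weeks old, and had received 20 mg/kg of LPS into the peritoneum. Spleens were taken 90 min or 6 h later, which gave 4 groups. At 90 min each genotype has 2 libraries, and at 6 h wild type has 2 and GdX-deficient 1. The labels write the genotype as GdX-/- and, in the protocol, as GdX-/Y. They do not describe the deleted segment. No spleen without LPS was analysed here, so no level can be set against a resting one. The source is given as splenocytes, but the protocol describes RNA from the mashed organ. Each sample is counted as 1 mouse on the strength of the design text.

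Depth was close to equal, at an estimated 18900000 to 21100000 fragments per library. The targeted gene could be checked only together with an overlapping entry: Ubl4a and Gm44504 summed to 5.04 to 11.2 FPKM in the 3 GdX-deficient libraries and to 21.0 to 63.0 FPKM in the 4 wild-type ones. Ubl4a alone was at 4.03, 5.69 and 10.6 FPKM in GdX-deficient and at 5.62, 7.5, 11.88 and 14.01 FPKM in wild-type libraries, so the entry by itself overlapped between genotypes. Markers of B cells, T cells, neutrophils, monocytes, red pulp macrophages, natural killer cells, red cell precursors, vessel lining and connective tissue were all present, as in whole spleen. The stroma list is Col1a1, Col3a1, Acta2 and Pdgfrb. In bulk RNA of this kind, fewer cells of a type and less RNA per cell cannot be told apart.

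The most abundant members were Bcl2a1b and Bcl2a1d, and the promoters of the Bcl2a1 copies are shown because they make plain how alike these genes are. The mouse genome carries several near-identical A1 genes on chromosome 9, and fragments from one can be assigned to another. The stretches below are the sequence before the annotated start of each copy in RefSeq (GRCm38.p6), at chr9:88956714-88956919 on the plus strand for Bcl2a1a, chr9:89199023-89199228 on the plus strand for Bcl2a1b and chr9:88731851-88732050 on the minus strand for Bcl2a1d. For Bcl2a1b the annotated start lies a further 44 bases downstream. They are written 5′ to 3′, and capitals mark an AP-1 motif and, after it, an ETS motif of the kind PU.1 binds.
Bcl2a1a: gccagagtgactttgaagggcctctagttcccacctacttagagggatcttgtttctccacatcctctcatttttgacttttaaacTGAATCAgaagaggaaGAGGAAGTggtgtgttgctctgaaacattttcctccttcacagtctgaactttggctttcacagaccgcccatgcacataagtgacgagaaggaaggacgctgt
Bcl2a1b: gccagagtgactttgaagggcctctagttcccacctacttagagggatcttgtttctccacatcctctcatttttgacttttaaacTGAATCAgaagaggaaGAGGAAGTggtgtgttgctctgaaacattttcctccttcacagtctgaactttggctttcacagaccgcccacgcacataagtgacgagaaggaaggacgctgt
Bcl2a1d: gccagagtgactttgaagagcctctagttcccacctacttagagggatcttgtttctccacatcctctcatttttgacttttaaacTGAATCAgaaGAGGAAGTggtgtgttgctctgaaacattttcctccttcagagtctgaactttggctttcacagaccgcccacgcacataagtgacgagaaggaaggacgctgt
Bcl2a1a and Bcl2a1b were identical at 205 of 206 aligned bases (99.5%). Bcl2a1d was 95.6% identical to Bcl2a1a and 96.1% identical to Bcl2a1b, with 6 bases missing beside the ETS motif in both alignments. The AP-1 motif (TGANTCA, searched on both strands) was found in 7.81% of 32851 promoter windows of 300 bases in mouse, and the ETS motif (GAGGAAGT) in 3.20%. All 3 copies also held the C/EBP-ATF composite TGATGNAA, which 3.97% of windows hold. A match of letters is a description of the window and not a bound site.

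Bcl2a1b was at 1308 and 1010 FPKM in wild type at 90 min, at 780 and 423 FPKM in GdX-deficient spleen at 90 min, at 498 and 368 FPKM in wild type at 6 h and at 180 FPKM in the lone GdX-deficient library at 6 h. It was the highest member in every library but the last, where Mcl1 stood above it, and at each time both wild-type libraries lay above every GdX-deficient one. Bcl2a1d was at 727 and 535 FPKM in wild type and at 384 and 181 FPKM in GdX-deficient spleen at 90 min, then at 414 and 249 FPKM in wild type and 99.5 FPKM in GdX-deficient spleen at 6 h. The genotypes were again apart at both times. Bcl2a1a was at 269 and 194 FPKM in wild type and 141 and 132 FPKM in GdX-deficient spleen at 90 min, and at 98.8 and 62.3 FPKM in wild type and 64.3 FPKM in GdX-deficient spleen at 6 h. At 6 h the single GdX-deficient value of Bcl2a1a therefore lay between the wild-type ones.

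Because fragments can move between copies, the sum is the firmer quantity. The 3 copies summed to 2305 and 1739 FPKM in wild type and to 1305 and 736 FPKM in GdX-deficient spleen at 90 min. At 6 h the sums were 1010 and 679 FPKM in wild type and 343 FPKM in GdX-deficient spleen. The sums were highest in wild type at 90 min and lowest in the GdX-deficient library at 6 h. Between these, the second GdX-deficient library at 90 min lay between the wild-type libraries at 6 h, so these groups overlapped. Bcl2a1b made up between 49.3% and 59.8% of the sum in each library. Bcl2a1a, the smallest share, took 9.2% to 11.7% in 5 libraries and 17.9% and 18.7% in the second GdX-deficient library at 90 min and the GdX-deficient library at 6 h. The share of Bcl2a1d ran from 24.6% in the second GdX-deficient library at 90 min to 41.0% in the first wild-type library at 6 h. Across the 7 libraries, on log2(FPKM + 1), Pearson's r was 0.95 between Bcl2a1b and Bcl2a1d, 0.91 between Bcl2a1a and Bcl2a1b and 0.78 between Bcl2a1a and Bcl2a1d. These libraries share groups, and the copies may share fragments.

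**Figure D1:**
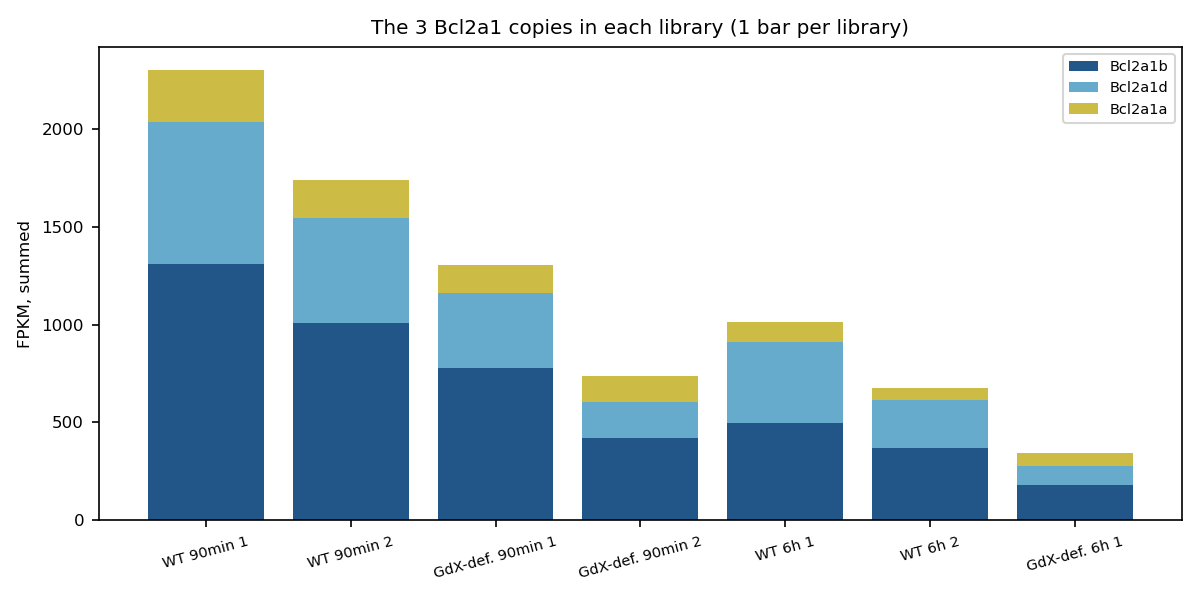
Summed FPKM of Bcl2a1b, Bcl2a1d and Bcl2a1a (stacked) in each of the 7 libraries, 1 bar per library. The sum goes from 2305 FPKM in the first wild-type library at 90 min to 343 FPKM in the last, GdX-deficient at 6 h.

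Bcl2 and Bcl2l1 (which encodes BCL-XL) are the long-lived guardians of the family, and they differed in opposite directions with time in wild type. Bcl2 was at 19.7 and 20.3 FPKM in wild type and 22.1 and 17.4 FPKM in GdX-deficient spleen at 90 min. At 6 h it was at 38.8 and 34.5 FPKM in wild type but at 15.3 FPKM in GdX-deficient spleen, the lowest of all 7. The genotypes overlapped at 90 min and were apart at 6 h, where the wild-type mean was 2.39-fold that of GdX-deficient spleen. Bcl2l1 was at 165 and 157 FPKM in wild type and 132 and 54.5 FPKM in GdX-deficient spleen at 90 min, and at 52.4 and 43.4 FPKM in wild type and 47.2 FPKM in GdX-deficient spleen at 6 h. Wild type at 90 min stood highest for Bcl2l1, and at 6 h the genotypes overlapped. The second GdX-deficient library at 90 min stood near the 6 h level of Bcl2l1, while the first stood near the wild-type one.

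Mcl1 encodes a short-lived survival protein with a fast-turning-over transcript, which neutrophils and lymphocytes need. It was at 226 and 230 FPKM in wild type and 181 and 259 FPKM in GdX-deficient spleen at 90 min, and at 122 and 138 FPKM in wild type and 220.1 FPKM in GdX-deficient spleen at 6 h. The genotypes overlapped at 90 min. At 6 h the GdX-deficient library stood at 1.69 times the wild-type mean and within the range of all 90 min libraries. The sum of the A1 copies was 10.2 and 7.57 times the level of Mcl1 in wild type at 90 min and 1.56 times in the GdX-deficient library at 6 h, the lowest ratio. That ratio was 2.84 in the second GdX-deficient library at 90 min and between 4.93 and 8.27 in the remaining 3.

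**Figure D2:**
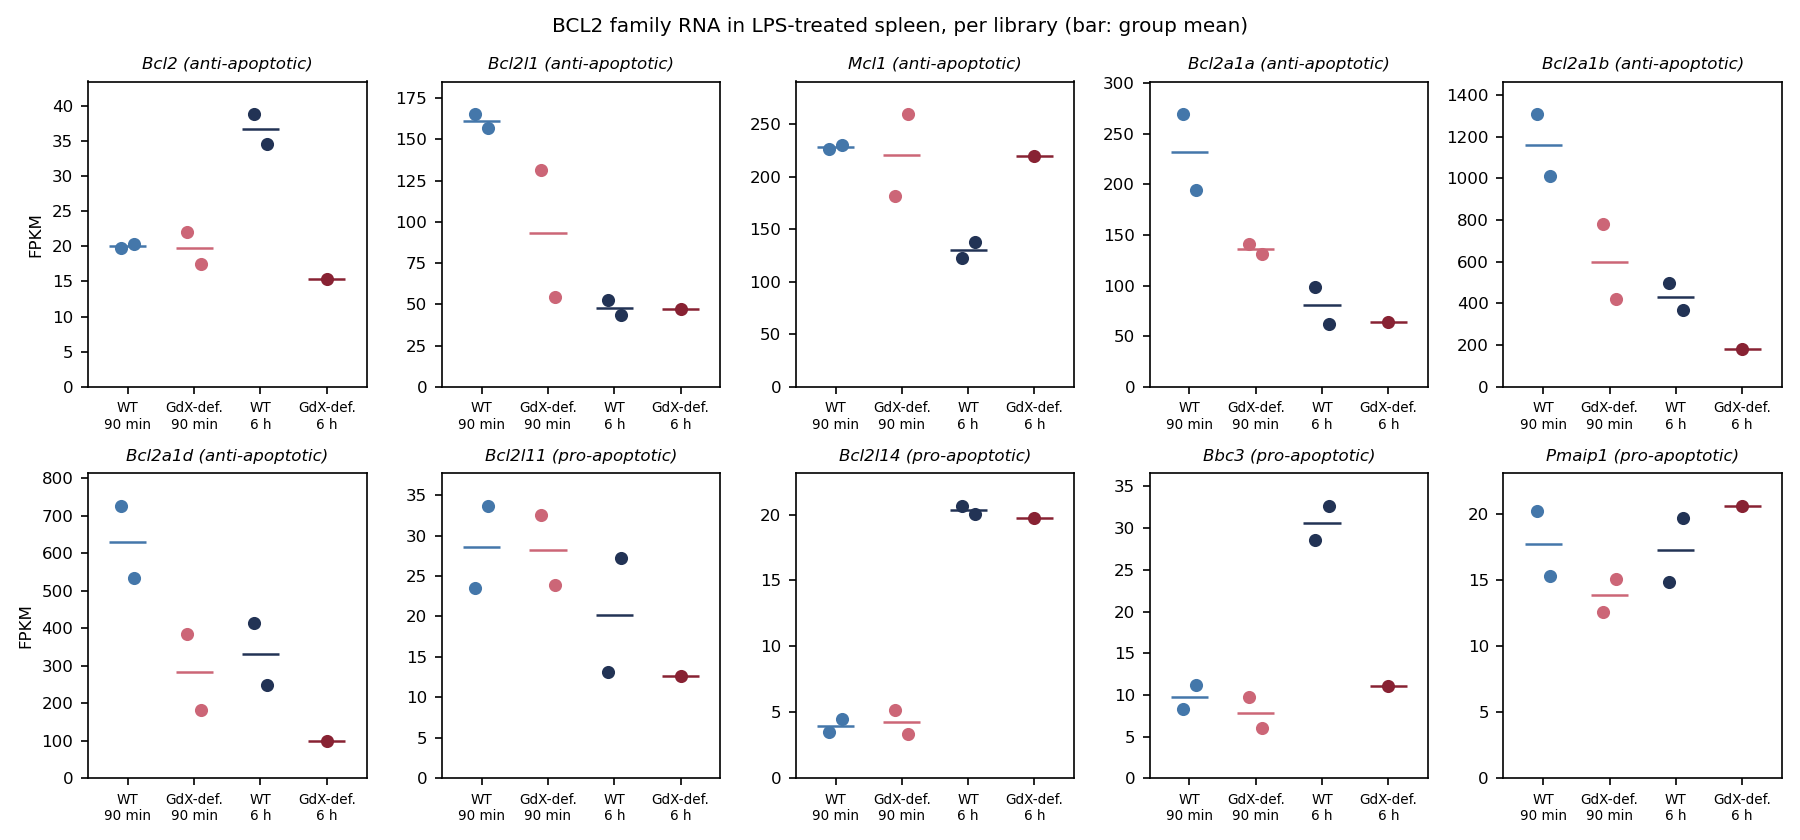
FPKM of each of the 10 members in each library (points) with the group mean (bar), by genotype and time, each panel on its own scale from 0. Bcl2 and Bbc3 are highest in the 2 wild-type libraries at 6 h, at 34.5 to 38.8 and 28.6 to 32.7 FPKM, while Bcl2l14 lies between 19.7 and 20.7 FPKM in all 3 libraries at 6 h.

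Among the pro-apoptotic members, Bbc3 and Bcl2l14 were higher at 6 h in wild type, with the times apart, and Bcl2l11 and Pmaip1 overlapped between the times there. Bbc3 encodes PUMA, a BH3-only protein that p53 and other stress factors induce. Bbc3 was at 8.32 and 11.2 FPKM in wild type and 9.70 and 6.03 FPKM in GdX-deficient spleen at 90 min, and at 28.6 and 32.7 FPKM in wild type and 11.04 FPKM in GdX-deficient spleen at 6 h. The wild-type libraries at 6 h stood apart from all others, and the GdX-deficient library at 6 h lay within the wild-type range at 90 min. Bcl2 was also highest in those 2 libraries, and Pearson's r between Bcl2 and Bbc3 was 0.89 over the 7 libraries. The ratio of Bcl2 to Bbc3 ran from 1.06 and 1.36 in wild type at 6 h to 2.89 in the second GdX-deficient library at 90 min, and it was 1.39 in the GdX-deficient library at 6 h.

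Bcl2l14 encodes BCL-G, which was described as pro-apoptotic but whose part in cell death is less settled. Bcl2l14 was at 3.49 and 4.47 FPKM in wild type and 5.19 and 3.36 FPKM in GdX-deficient spleen at 90 min, and at 20.7 and 20.1 FPKM in wild type and 19.7 FPKM in GdX-deficient spleen at 6 h. All 3 libraries at 6 h stood above all 4 at 90 min, and within each time the genotypes lay within 2 FPKM of each other. Among the members it was the lowest at 90 min in every library.

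Bcl2l11 encodes BIM, the BH3-only protein that removes activated and self-reactive lymphocytes. Bcl2l11 was at 23.5 and 33.7 FPKM in wild type and 32.6 and 23.9 FPKM in GdX-deficient spleen at 90 min, and at 13.2 and 27.2 FPKM in wild type and 12.7 FPKM in GdX-deficient spleen at 6 h. For Bcl2l11 the genotypes overlapped at 90 min and the times overlapped in wild type, where 1 library at 6 h stood above the other by more than the replicates of any other group differed. Pmaip1 encodes NOXA, which binds MCL1 and A1. Pmaip1 was at 20.2 and 15.3 FPKM in wild type and 12.6 and 15.1 FPKM in GdX-deficient spleen at 90 min, and at 14.9 and 19.8 FPKM in wild type and 20.7 FPKM in GdX-deficient spleen at 6 h. It varied least of all members, 1.64-fold between its lowest and highest library.

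Bcl2l11 and Bbc3 are textbook targets of FOXO factors, and both held the forkhead motif TGTTTAC, on either strand, in a promoter window. The stretches are at chr2:128125789-128125839 for Bcl2l11 and chr7:16310072-16310122 for Bbc3, both on the plus strand in RefSeq's GRCm38.p6, with the motif in capitals.
Bcl2l11: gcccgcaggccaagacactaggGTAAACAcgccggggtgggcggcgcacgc
Bbc3: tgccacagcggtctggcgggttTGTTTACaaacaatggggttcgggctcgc
The motif occurs in 3.65% of all windows. In Bcl2l11 it is read on the opposite strand. The search covered 15 windows of 9 members and 10 motifs, and Pmaip1 was left out of it. The kappa B consensus was matched in windows of Bcl2l1 and Bbc3 (8.46% of all windows hold it), the CRE half-site TGACGT in Bcl2 (7.51%), the E-box CACGTG in Bbc3 (7.15%) and the ETS motif also in Bcl2l14. The GAS site TTCNNNGAA (8.30%), the interferon-stimulated response element (3.44%) and the p53 half-site consensus (8.36%) were not matched in these windows.

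Time was compared first in wild type, where each time has 2 libraries. From 90 min to 6 h, 5 of 10 members passed the threshold of limma's fit over all genes (Benjamini-Hochberg adjusted p under 0.05), as did 10.7% of the 11378 genes tested (499 higher and 719 lower at 6 h, or 191 and 517 with each library set to an equal sum without globin genes). Those 5 were Bcl2l1, Bcl2a1a and Bcl2a1b, which were lower, and Bcl2l14 and Bbc3, which were higher. The choice of members used these values, so nothing is read from that count. The time comparisons and the genotype comparisons below share libraries. Differences are given on log2(FPKM + 1), 6 h minus 90 min, with the standard error of the fit. They were -1.74 (SE 0.38) for Bcl2l1, -1.53 (SE 0.30) for Bcl2a1a, -1.42 (SE 0.35) for Bcl2a1b and -0.96 (SE 0.40) for Bcl2a1d. Mcl1 differed by -0.81 (SE 0.26). Bcl2 alone among the anti-apoptotic members was higher at 6 h, by 0.84 (SE 0.26). On the pro-apoptotic side Bcl2l14 differed by 2.11 (SE 0.31), a 5.12-fold higher mean FPKM, and Bbc3 by 1.57 (SE 0.31), a 3.14-fold higher mean. Bcl2l11 (-0.54, SE 0.37) and Pmaip1 (-0.04, SE 0.29) overlapped between the times. The libraries of the times were apart for 8 of 10 members, against 57.9% of all genes. The number of members past the threshold was 2 (Bcl2l1 and Bcl2l14) without the first wild-type library at 90 min, where 3.96% of all genes passed, and 1 (Bcl2l14) when genes of low FPKM were kept in the fit, where 3.54% did. It was 4, without Bbc3, with equal sums without globin genes (6.22% of all genes), and 6, with Bcl2a1d, without the first wild-type library at 6 h (13.3%). In that last fit Bcl2a1d was at -1.32 and Bcl2l11 at -0.05, and without the second library at 6 h they were at -0.59 and -1.04. Pmaip1 took either sign over the alternatives, from -0.23 to 0.16. With the replicate block 8 members passed, with Bcl2, Mcl1 and Bcl2a1d added, beside 20.6% of all genes.

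In GdX-deficient spleen the later time is 1 library, so the comparison is a description. A member was counted when it differed at least 2-fold on log2(FPKM + 1) and the single library lay outside both libraries of the pair. This held for 5 of 10 members and for 5.73% of all genes (465 higher and 187 lower, or 262 and 325 with quantile normalization). Bcl2a1b (-1.67), Bcl2a1d (-1.40), Bcl2a1a (-1.07) and Bcl2l11 (-1.08) were lower at 6 h, and Bcl2l14 was higher (2.00). The single library lay outside the pair for 9 of 10 members and for 72.6% of all genes. Bcl2l1 differed by -0.83 and Bcl2 by -0.33, while Pmaip1 (0.55) and Bbc3 (0.47) were higher at 6 h. Without the first GdX-deficient library at 90 min these came to -0.20 for Bcl2l1, -0.17 for Bcl2 and 0.78 for Bbc3, and without the second to -1.46, -0.50 and 0.17. Over all alternatives Bcl2 lay between -0.62 and -0.17 and Pmaip1 between 0.34 and 0.67. Mcl1, at 0.02, was the member inside the pair, and it took either sign over the alternatives, from -0.24 to 0.28. Beside the wild-type values, Bcl2 thus had differences of opposite sign in the genotypes. Those of Bcl2l14 were 2.11 and 2.00. Whether time acted differently by genotype was not tested. The count was 3 (Bcl2a1a, Bcl2a1b and Bcl2l14) without the first GdX-deficient library at 90 min, where Bcl2a1d was at -0.86, Bcl2l11 at -0.87 and 5.14% of all genes were counted. It was 6 without the second, with Bcl2l1 added, beside 11.7% of all genes.

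Genotype was compared at 90 min with 2 libraries on each side. None of the 10 members passed limma's threshold, and 0.0176% of all genes did (2 genes, with 862 at an unadjusted p under 0.05). The genotypes were apart for 5 of 10 members, Bcl2l1, the 3 Bcl2a1 copies and Pmaip1, and for 47.5% of all genes. Differences, GdX-deficient minus wild type, were -1.24 (SE 0.40) for Bcl2a1d, -1.0 (SE 0.35) for Bcl2a1b and -0.74 (SE 0.30) for Bcl2a1a. Bcl2l1 differed by -0.92 (SE 0.38). These leaned on the second GdX-deficient library: without it the differences were -0.70 for Bcl2a1d, -0.56 for Bcl2a1b and -0.29 for Bcl2l1, and without the first they were -1.78, -1.44 and -1.55. Bcl2a1a moved less, between -0.50 and -0.98 over the libraries left out. Bcl2a1d passed the threshold when only the 4 libraries at 90 min were fitted, and when either wild-type library at 6 h was left out, in fits that called 181, 173 and 183 of all genes. Bcl2 (-0.03, SE 0.26), Mcl1 (-0.07, SE 0.26), Bcl2l11 (-0.01, SE 0.37) and Bcl2l14 (0.07, SE 0.31) differed by less than 1 SE. With each library set to an equal sum without globin genes, Bcl2, Mcl1 and Bcl2l11 turned to 0.17, 0.14 and 0.19. With quantile normalization Mcl1 turned to 0.17 and Bcl2l14 to -0.10. With a library left out, too, each of these 4 values could take either sign, within -0.33 to 0.32. Bbc3 (-0.30, SE 0.31) and Pmaip1 (-0.33, SE 0.29) were close to 1 SE, and Bbc3 came to 0.01 without the second GdX-deficient library and to -0.60 without the first. Pmaip1 lay between -0.52 and -0.13 over the alternatives.

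At 6 h the GdX-deficient side is 1 library. By the 2-fold rule 4 of 10 members were counted, all lower in GdX-deficient spleen on the deposited scale, and 22.0% of all genes were counted (1879 higher and 622 lower, or 2857 and 352 with equal sums without globin genes and 951 and 881 with quantile normalization). The 4 were Bcl2a1d (-1.68), Bbc3 (-1.39), Bcl2a1b (-1.25) and Bcl2 (-1.20), so they include survival genes and a death gene. Mcl1 was higher by 0.76. Bcl2l11 differed by -0.55, Bcl2a1a by -0.28 and Pmaip1 by 0.25, and these moved with the wild-type library left out. Without the first one at 6 h they were -1.05, 0.04 and 0.06, and 5 members, with Bcl2l11 added, were past 2-fold, beside 16.6% of all genes. Without the second one they were -0.06, -0.61 and 0.45, with the same 4 members counted beside 33.7% of all genes. With equal sums without globin genes they were -0.29, -0.01 and 0.52, and with quantile normalization -0.85, -0.11 and 0.04. Bcl2l1 (-0.01) and Bcl2l14 (-0.04) were close to 0 and took the other sign when libraries were set to an equal sum without globin genes (0.26 and 0.22). With quantile normalization Bcl2l1 was at 0.06 and Bcl2l14 at -0.24. The single library lay outside the wild-type pair for 8 of 10 members and for 80.3% of all genes. The median of all genes was itself 0.32 at 6 h, and it was 0.55 with equal sums without globin genes and -0.02 with quantile normalization. At 90 min these medians were 0.07, 0.25 and 0.01. Under either scaling the 4 members kept their sign, but the count changed. With equal sums without globin genes 3 members were past 2-fold: Bcl2a1d (-1.40) and Bbc3 (-1.13) lower and Mcl1 higher (1.04), while Bcl2 (-0.93) and Bcl2a1b (-0.97) were not. With quantile normalization 4 were, Bcl2a1d (-1.40), Bbc3 (-1.65) and Bcl2 (-1.37) lower and Mcl1 higher (1.06), while Bcl2a1b (-0.96) was not.

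Over both times, with time as a covariate and 3 against 4 libraries, none of the 10 members passed the threshold, and 0.0439% of all genes did (5 genes, with 3071 at an unadjusted p under 0.05). Bcl2a1d differed by -1.41 (SE 0.30) and Bcl2a1b by -1.10 (SE 0.26). Those were the 2 members whose genotypes were apart in the same direction at both times. Over all genes 47.5% were apart at 90 min and 80.3% at 6 h. The share apart at both was not counted, so nothing is read from the 2. The other values were -0.73 (SE 0.29) for Bbc3, -0.56 (SE 0.24) for Bcl2a1a, -0.56 (SE 0.31) for Bcl2l1 and -0.50 (SE 0.27) for Bcl2. Mcl1 came to 0.26 (SE 0.24), and Bcl2l11, Pmaip1 and Bcl2l14 lay between -0.23 and 0.02. Without the GdX-deficient library at 6 h Bcl2 came to -0.03, Bbc3 to -0.30, Mcl1 to -0.07 and Bcl2l1 to -0.92, and without the second GdX-deficient library at 90 min Bcl2l1 came to -0.15. Mcl1 reached 0.52 with quantile normalization, and with equal sums without globin genes Bcl2 was at -0.27, Bcl2a1a and Bcl2l1 were at -0.32 each, and Bcl2l11 was at -0.002. Pmaip1 and Bcl2l14 took either sign over the alternatives. Without the first GdX-deficient library at 90 min, 3 members passed (Bcl2a1b, Bcl2a1d and Bbc3), beside 1674 of all genes (14.7%), and without the second wild-type library at 90 min Bcl2a1d did, beside 242 of all genes (2.13%).

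**Figure D3:**
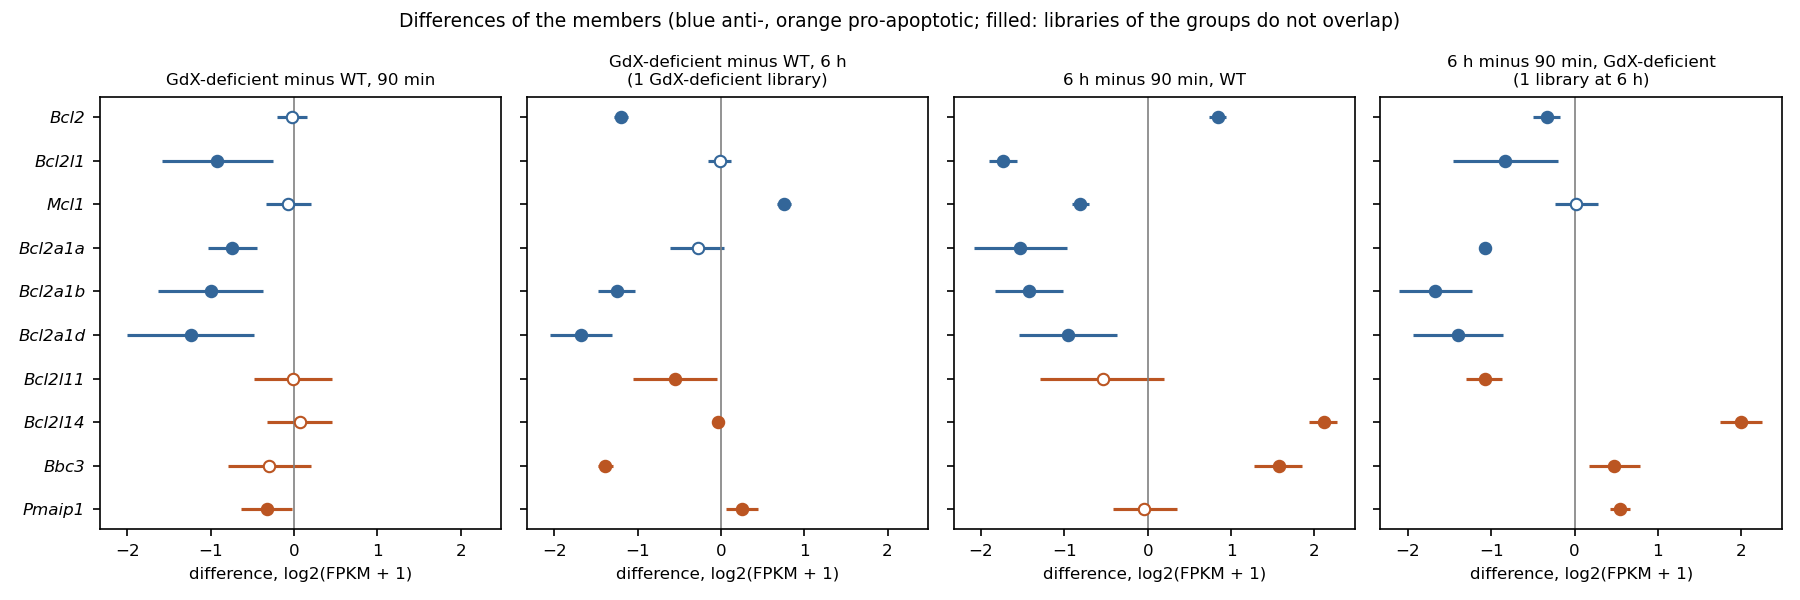
Difference of each member on log2(FPKM + 1) in 4 comparisons, with bars spanning the lowest to the highest difference between any library of one group and any of the other. Filled points mark groups whose libraries do not overlap; in wild type over time the anti-apoptotic members other than Bcl2 lie between -1.74 and -0.81, and Bcl2l14 and Bbc3 lie at 2.11 and 1.57.

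The contrast of the classes was described as the mean log2(FPKM + 1) of the 6 anti-apoptotic members minus that of the 4 pro-apoptotic members in each library. In wild type it was 4.32 and 3.90 at 90 min and 2.76 and 2.04 at 6 h. In GdX-deficient spleen it was 3.69 and 3.49 at 90 min and 2.22 at 6 h. All libraries at 6 h lay below all libraries at 90 min, and at 90 min the GdX-deficient libraries lay below the wild-type ones, while at 6 h the GdX-deficient value lay between those of wild type. The anti-apoptotic mean went from 7.92 and 7.70 in wild type at 90 min to 7.05 and 6.70 at 6 h, and from 7.41 and 6.88 to 6.26 in GdX-deficient spleen. The pro-apoptotic mean went from 3.60 and 3.80 to 4.28 and 4.67 in wild type, and from 3.72 and 3.40 to 4.04 in GdX-deficient spleen. The difference with time was -1.71 in wild type and -1.36 in GdX-deficient spleen, and without Bcl2l14 it was -1.27 and -0.86. The genotype difference was -0.52 at 90 min. It was -0.32 there without the first wild-type library, -0.73 without the second and -0.27 with quantile normalization. At 6 h it was -0.18, and its sign did not hold: it was 0.19 without the first wild-type library at 6 h, 0.22 with quantile normalization and 0.002 with the Bcl2a1 copies summed to 1 gene. The class means join unlike members: Bcl2 was higher with time in wild type and Mcl1 higher in GdX-deficient spleen at 6 h, where Bcl2a1b and Bcl2a1d were lower.

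**Figure D4:**
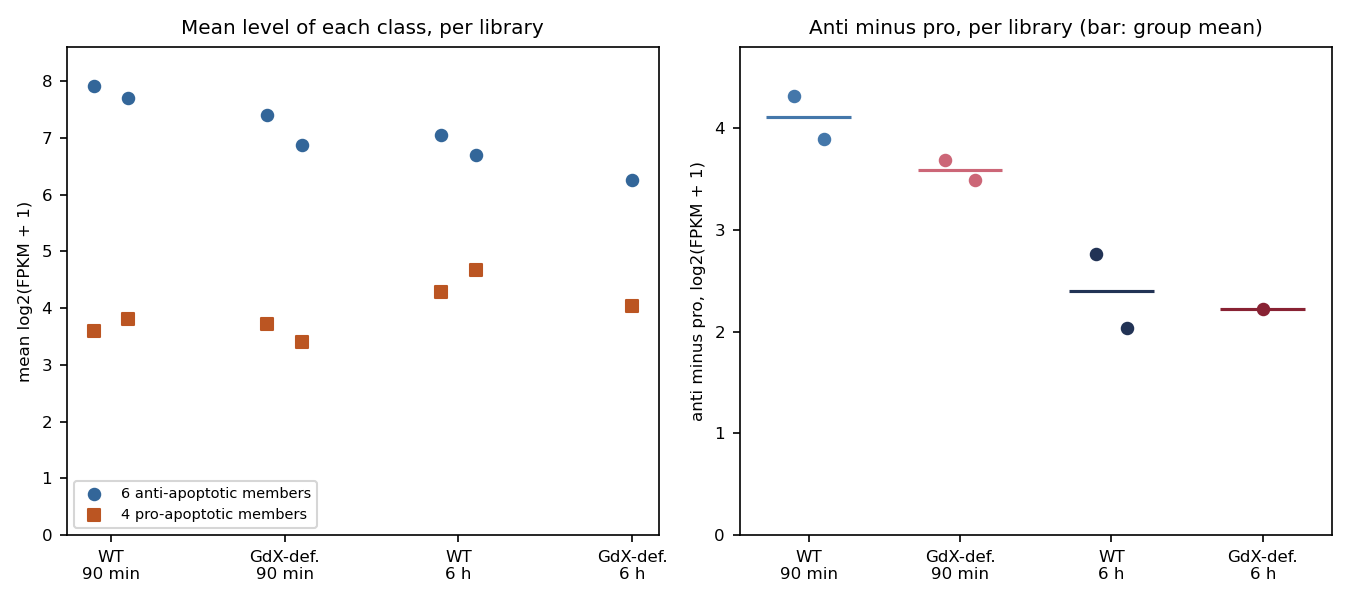
Left, mean log2(FPKM + 1) of the 6 anti-apoptotic (circles) and 4 pro-apoptotic members (squares) in each library; right, their difference, with the group mean as a bar. The difference lies between 3.49 and 4.32 in the libraries at 90 min and between 2.04 and 2.76 at 6 h.

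Markers of cell types also differed between the libraries. The 6 B cell markers summed to 1498 and 1400 FPKM in wild type and 1203 and 1993 FPKM in GdX-deficient spleen at 90 min, and to 380 and 428 FPKM in wild type and 1698 FPKM in GdX-deficient spleen at 6 h. All 6 were higher in GdX-deficient than in wild-type spleen at 6 h, and all 6 were lower at 6 h than at 90 min in wild type. T cell markers (6 of 7 listed were in the table) summed to 225 to 309 FPKM at 90 min, to 145 and 118 FPKM in wild type at 6 h and to 248 FPKM in GdX-deficient spleen at 6 h. Bcl2, a lymphocyte survival gene, was thus highest in the libraries with the lowest sums of B and T cell markers. The 7 neutrophil markers summed to 4710 FPKM in the second GdX-deficient library at 90 min and to 2601 FPKM in the one at 6 h, against 685 to 1071 FPKM in the other 5. These are also the libraries with the lowest ratio of A1 copies to Mcl1 and the largest share of Bcl2a1a. Monocyte and macrophage markers summed to 130 to 226 FPKM in 6 libraries and to 355 FPKM in GdX-deficient spleen at 6 h. The 8 red cell markers, mostly globin by level, summed to 59799 to 84840 FPKM at 90 min and 20766 to 36292 FPKM at 6 h. No marker of these lists that the table holds was at 0 in every library. The part of cell makeup in the members' differences was not tested.

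The rest of the apoptosis pathway was read from a list of 51 other genes in the table, of which 49 passed the filter. From 90 min to 6 h in wild type, 5 of the 49 passed limma's threshold, 3 higher and 2 lower. In the main fit that share was close to the 10.7% over all genes, but this depended on the setting. With the replicate block 15 of the 49 passed, a share above the 20.6% over all genes in that fit. With a filter of a mean of at least 5 FPKM, 5 of 43 passed, a share close to the 11.4% over all genes there. Nothing is therefore read from the closeness. In the main fit an unadjusted p under 0.05 was reached by 16 of the 49 and by 3262 of all 11378 genes. Bax, the pore-forming effector, rose from 115 and 100.1 FPKM to 383 and 258 FPKM (a difference of 1.54 on log2(FPKM + 1), the scale of all differences below, SE 0.27, limma adjusted p = 0.0104). Ddit3, the stress factor CHOP that represses Bcl2 and induces Bcl2l11 in other systems, rose from 14.7 and 14.4 FPKM to 68.9 and 57.5 FPKM (2.04, SE 0.29, limma adjusted p = 0.00481). Vdac2, a mitochondrial channel that holds BAK, rose from 97.9 and 83.6 FPKM to 208 and 167 FPKM (1.04, SE 0.25, limma adjusted p = 0.0296). Vdac2 was lost from the calls without either wild-type library at 90 min (limma adjusted p = 0.119 and 0.228) or without the first one at 6 h (limma adjusted p = 0.0662). It was also lost with equal sums without globin genes (limma adjusted p = 0.056) and with no filter on low values (limma adjusted p = 0.0525).

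The genes that fell were Bok and Bnip3l. Bok, a BAX-like effector, fell from 10.5 and 7.77 FPKM to 1.99 and 1.58 FPKM (-1.85, SE 0.29, limma adjusted p = 0.00685). Bnip3l encodes NIX, which clears mitochondria during red cell maturation, and fell from 64.4 and 62.0 FPKM to 19.9 and 23.8 FPKM (-1.50, SE 0.24, limma adjusted p = 0.00726). The red cell markers were lower at 6 h as well, as given above. Bok was at 3.23 and 3.50 FPKM in GdX-deficient spleen at 90 min, and the summed level of the 4 stroma markers, of which Acta2 is the largest part in each library, was likewise lowest there and in wild type at 6 h. The stroma markers summed to 57.1 and 34.7 FPKM in wild type and 14.4 and 11.1 FPKM in GdX-deficient spleen at 90 min, and to 11.7 and 18.6 FPKM in wild type and 31.8 FPKM in GdX-deficient spleen at 6 h. Pdgfrb among them went the other way in wild type, from 1.55 and 1.59 FPKM to 2.45 and 3.59 FPKM. The part of red cells and stroma in Bnip3l and Bok was not tested. In the GdX-deficient library at 6 h Bax was at 146 FPKM, Ddit3 at 37.9 FPKM, Bok at 8.22 FPKM and Bnip3l at 54.3 FPKM. Bax, Ddit3 and Bnip3l thus lay between the wild-type values at 90 min and at 6 h, and Bok lay within the wild-type range at 90 min.

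The effectors and BH3-only genes named whatever their values come next. Bak1, the other effector, was at 17.4 and 25.1 FPKM in wild type at 90 min and 32.1 and 49.3 FPKM at 6 h, and at 24.7 and 29.1 FPKM and then 58.7 FPKM in GdX-deficient spleen. Its difference in wild type (0.90, SE 0.31, limma adjusted p = 0.0915) did not pass the threshold. Bid, which caspase-8 cuts, was at 18.8 and 20.9 FPKM and then 32.6 and 42.2 FPKM in wild type (0.87, SE 0.26, limma adjusted p = 0.063). Bad was at 8.42 to 17.8 FPKM, Bmf at 2.24 to 6.62 FPKM and Bik at 0.51 to 1.75 FPKM over the 7 libraries. Of these, Bad (0.04), Bmf (0.59) and Bik (-0.15) had wild-type time differences with limma adjusted p-values of 0.956, 0.321 and 0.745. Bcl2a1c, another A1 copy, was lower throughout, and went from 15.6 and 9.54 FPKM in wild type at 90 min to 2.74 FPKM in GdX-deficient spleen at 6 h.

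By arm of the pathway, 9 of 12 apoptosome and caspase genes were higher at 6 h in wild type (median 0.39) and 9 of 11 genes of the inhibitor of apoptosis and death receptor arm were lower (median -0.50), with none past the threshold in either. Over all genes 53.1% were higher and 46.9% lower, with a median of 0.05. Of the regulators of the family 8 of 11 were higher (median 0.30), of the other BH3-only and related genes 6 of 10 (median 0.09) and of the 3 effectors 2 (median 0.90). Both remaining genes listed as anti-apoptotic were lower (median -0.72), Bcl2a1c at -1.35 and the other at -0.09, where the times overlapped. By genotype at 90 min none of the 49 passed the threshold (27 higher and 22 lower, median 0.07, as over all genes). An unadjusted p under 0.05 was reached there by 4 of the 49 and by 862 of all 11378 genes. With time as a covariate none passed, and 15 of the 49 had an unadjusted p under 0.05, against 3071 of all genes. Without the first GdX-deficient library at 90 min 6 of the 49 passed, a share below the 14.7% over all genes in that fit. At 6 h, 8 of the 49 were past 2-fold in the single GdX-deficient library, against 22.0% of all genes. Bax was the lower one (-1.11), and Bok (1.73), Foxo3 (1.60), Birc6 (1.49), Casp9 (1.45), Bnip3l (1.28), Casp6 (1.15) and Huwe1 (1.14) were higher. Foxo3, Birc6, Casp9, Casp6 and Huwe1 are named because their values are past 2-fold. With equal sums without globin genes 11 of the 49 were past 2-fold, all higher, against 28.2% of all genes (2857 higher and 352 lower), so nothing is read from that count.

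**Figure D5:**
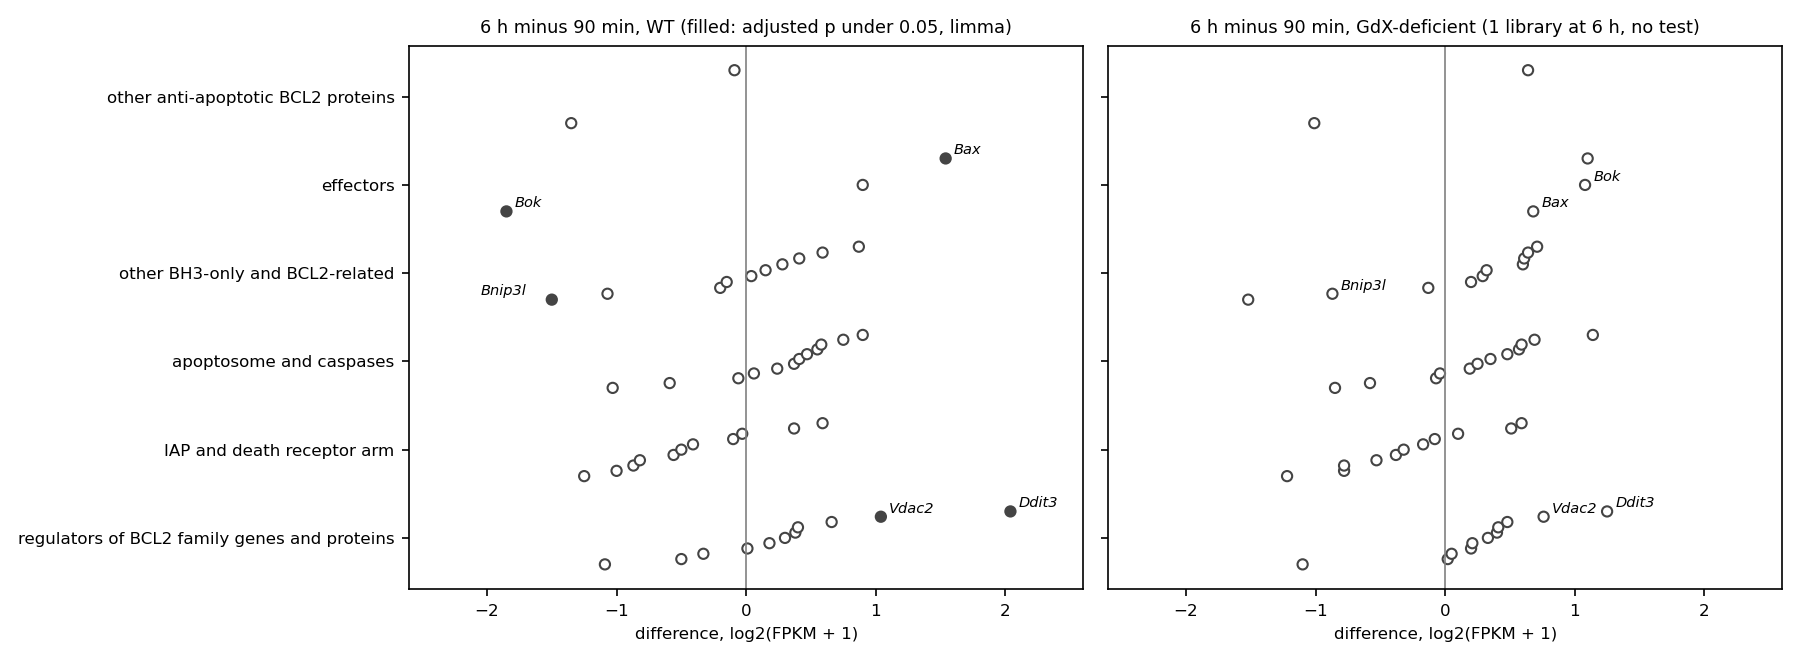
Difference on log2(FPKM + 1), 6 h minus 90 min, of the 49 other apoptosis pathway genes by arm (1 point per gene, spread vertically for legibility), in wild type (left, filled where limma's adjusted p is under 0.05) and in GdX-deficient spleen (right, no test). Bax, Ddit3 and Vdac2 are higher and Bok and Bnip3l lower in wild type; Bok lies on the other side in GdX-deficient spleen, at 1.08.

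For each member the 3 genes most like it across the 7 libraries were found by Pearson's r on log2(FPKM + 1) among 10935 genes. With 4 groups and 7 libraries many genes share any pattern, and r is a description. Nearest to Bcl2 were Znhit3 (0.991), Trmt10a (0.981) and Ifrd2 (0.979), and near to Bbc3 were Thop1 (0.996) and Prmt5 (0.996). Znhit3 was at 13.9 and 12.9 FPKM in wild type at 6 h and at 8.24 to 9.49 FPKM elsewhere, the same shape as Bcl2. Nearest to Bcl2l1 were Ppp1r15a (0.995), Zfp36 (0.988) and Egr1 (0.988), genes of the immediate-early and stress response. Bcl2a1d lay nearest to Mt1 (0.995), Wdr92 (0.992) and Nfkbia (0.990), the last encoding the NF-kB inhibitor IkB-alpha. Bcl2a1b lay nearest to Tnfrsf25 (0.989), Cxcl1 (0.989) and Hnrnph2 (0.988), and Bcl2a1a to Kcne3 (0.992), Top1 (0.991) and Hbb-bt (0.991). For Mcl1 they were Ppm1b (0.997), Sirpb1a (0.991) and Nicn1 (0.990), and for Bcl2l14 Tubb3 (0.996), Fcgr4 (0.989) and Arhgap8 (0.988). The least well matched members were Bcl2l11, with Sp140 (0.976), Cited2 (0.970) and Dennd4a (0.958), and Pmaip1, with Nrbf2 (0.982), Enox2 (0.944) and Xrcc4 (0.935).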

How the data were processed

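RNA from 7 mouse spleens was sequenced on a BGISEQ-500, per the labels' protocols, after oligo-dT selection or ribosomal RNA depletion (which of them is not given). The authors deposited FPKM values for 17920 genes. The submitters' processing notes name HISAT2 2.0.4, HISAT, Bowtie2 and RSEM and the build GRCm38.p5, without saying which step each served. How fragments were shared between near-identical genes is not given in the sources used here. Samples were grouped by their titles.

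Here, values were taken to log2(FPKM + 1), which understates the change of low genes, and the 11378 genes with a mean of at least 1 FPKM were fitted with limma 3.58.1 in R 4.3.3 (empirical Bayes with a trend, two-sided, Benjamini-Hochberg adjustment over all genes, threshold 0.05). One fit of the 4 groups gave genotype at 90 min and time in wild type, with spread from the 3 groups of 2, and an additive fit gave genotype with time as a covariate. Comparisons with the single GdX-deficient library at 6 h have no test. P-values set each difference against the spread between these few libraries, as moderated over all genes by the empirical Bayes step. In the additive fit that spread also takes in any difference between the times in the genotype effect. Depth was estimated from the steps between low values. Between 62.8% and 72.0% of low values lay within 0.15 of a whole fragment, so counts were not recovered and no count model was run. The fits were tested on simulated data.

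The members and lists were chosen with earlier results of these data known. Named genes are the 10 members, pathway genes past the threshold, Bax, Bak1, Bid, Bad, Bmf and Bik, and the 3 genes most like each member, of which 1 is not reported here. Others (Bcl2a1c, Foxo3, Birc6, Casp9, Casp6 and Huwe1) were named after their values were seen. Bcl2l10 of the pathway list was not analysed here, and Trp73 and Hrk did not pass the filter. Promoter windows (250 bases before to 50 after each start) are RefSeq's, GRCm38.p6. Alternatives were a pseudocount of 0.1, no filter or a mean of 5, quantile normalization, equal sums without globin genes, a replicate block, fewer libraries, summed Bcl2a1 copies and no Bcl2l14.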

Additional observations from a re-analysis of the deposited data

Results flagged for a closer look

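Of 20 genes (the members and the 10 other pathway genes named by rule), each compared in 2 ways, 5 results had all libraries of one group differing in one direction and those of the other group in the opposite direction. None of these differences was tested, since each rests on the single GdX-deficient library at 6 h. Over all genes the genotypes were apart for 47.5% at 90 min and 80.3% at 6 h. The times were apart for 57.9% in wild type and 72.6% in GdX-deficient spleen. The share of all genes with opposite differences was not counted, so nothing is read from the 5. With time, Bcl2 differed by 0.84 in wild type and by -0.33 in GdX-deficient spleen, a gap of -1.17 on log2(FPKM + 1). Bok differed with time by -1.85 in wild type and by 1.08 in GdX-deficient spleen, a gap of 2.93. The same gap of 2.93 stands between the genotype differences of Bok, -1.20 at 90 min and 1.73 at 6 h. The genotype difference of Bik went from -0.39 at 90 min to 0.47 at 6 h, a gap of 0.86, at levels of at most 1.75 FPKM. That of Pmaip1 went from -0.33 to 0.25, a gap of 0.58.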

How the results depend on the processing

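The anti-minus-pro difference by genotype at 6 h (-0.18) turned to 0.221 with quantile normalization and 0.002 with the Bcl2a1 copies summed, and ranged from -0.542 to 0.186 with a library left out. Without Bcl2l14 the time difference was -1.265 in wild type and -0.86 in GdX-deficient spleen, and the wild-type one ranged from -2.074 to -1.346 with a library left out. Bcl2l14 by genotype at 6 h turned to 0.221 with equal sums without globin genes. Counts of pathway genes with a library left out ranged from 6 to 13 for genotype at 6 h (5 with quantile normalization), 2 to 11 for time in GdX-deficient spleen, 4 to 13 for time in wild type and 0 to 6 for genotype with time as a covariate. Counts over all genes ranged from 1887 to 3830 for genotype at 6 h (1832 with quantile normalization), 585 to 1336 for time in GdX-deficient spleen, 2 to 183 for genotype at 90 min (181 with only its 4 libraries), 2 to 1674 with time as a covariate and 450 to 1774 for time in wild type (708 with equal sums without globin genes, 191 higher and 517 lower, and 635 with no filter). The cause was not tested. The replicate numbers were not treated as pairs in the main fits. Deviations of the first libraries correlated at -0.12 between the genotypes at 90 min and at 0.77 between the times in wild type. Between GdX-deficient spleen at 90 min and wild type at 6 h they correlated at 0.08. Whether same-numbered wild-type libraries share an effect was not tested. With the replicate block, time in wild type called 15 pathway genes, 8 members and 2345 genes, and the additive genotype fit 12 genes. Of the 590 alternative values for single members, 29 had the other sign, all of results of at most 0.30 in size on the deposited scale. With no counts deposited, the precision of low genes such as Bik is not known.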
